A study of Homo sapiens with 2 samples.

Results

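Focal adhesion scaffold and actin cytoskeleton genes were described in ACHN cells, an established human kidney cancer line that the labels call clear cell renal cell carcinoma, transfected with either a Kindlin-2 shRNA or a control shRNA. The 47 genes were chosen by name, with earlier results of these data known. The arrays held a transcript cluster (a set of probes summarised together for a gene) with a single gene symbol for 43 of them, of 18417 genes with such a cluster in all. The actin crosslinkers FLNA and FLNC, the tropomyosin TPM3 and the adaptor CRK were not analysed here. Both cultures were kept in medium with 400 µg/ml G418, which selects for cells that carry the vector's resistance gene. Whether the cells were a pool or a clone, and how many shRNA sequences were used, is not stated in the labels. Each group held 1 Affymetrix Human Gene 1.0 ST array, so every value below is a single measurement (n = 1) with no replicate check, no test was possible, and a difference describes these 2 arrays. The number of arrays limits the precision.

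Kindlin-2, encoded by FERMT2, cooperates with talin on the cytoplasmic tails of beta integrins, and paxillin, kinases of the FAK and Src families, Cas adaptors and vinculin gather at the same sites. These scaffolds join the integrins to actin filaments, which are crosslinked by alpha-actinin and filamin, coated by tropomyosin and calponin and pulled by non-muscle myosin II. Many genes of the filament proteins are known targets of serum response factor (SRF), whose co-activators respond to the pool of unpolymerised actin. In epithelial cells of the kidney this machinery holds cells on the basement membrane and drives spreading and migration.

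FERMT2 had a log2 value of 8.26 on the Kindlin-2 shRNA array and 9.37 on the control array, a level 2.16-fold lower, at 46.4% of the control. Of all genes kept by the filter described below, 114 had a larger decrease. The 9 measured markers of kidney epithelium or of renal carcinoma lines had values of 7.32 to 12.68 on the Kindlin-2 shRNA array and of 6.41 to 12.65 on the control array, and all reached the filter floor of 6.52, which is the median over the whole table, on at least 1 array. The lowest of them, the cadherin CDH6, reached it on the Kindlin-2 shRNA array only. In that list CDH6 was at least 1.5-fold higher (0.91 on the log2 scale) and the kidney transcription factor PAX2 at least 1.5-fold lower (-0.66), and the keratins KRT8, KRT18 and KRT19 differed by -0.54, -0.44 and -0.40. The rest of the list went both ways, with EPCAM at 0.25, VIM at 0.20, PAX8 at -0.13 and MET at -0.25. None of 5 endothelial and none of 4 leukocyte markers measured reached the floor, with highest values of 5.96 and 6.23. Of 12 smooth muscle and fibroblast markers 5 reached it, with a list range of 3.32 to 8.09 on the Kindlin-2 shRNA array and of 3.27 to 7.95 on the control array. Of these 5, PDGFRB reached it on the control array only, and COL3A1 and DES on the Kindlin-2 shRNA array only. Among these 12 the receptor PDGFRB was the only one at least 1.5-fold lower (6.31 beside 7.08 in the control, -0.77) and none was as much higher. The next largest differences were those of leiomodin (LMOD1, -0.50, under the floor) and desmin (DES, 0.22), while the smooth muscle myosin MYH11 (-0.085) and myocardin (MYOCD, -0.043) were under the floor on both arrays. The part of other cells in the differences below was not tested, and in bulk RNA fewer cells of a type and less RNA per cell cannot be told apart.

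The adhesion and actin genes were not shifted as a group. Of the 43 measured, 41 passed the filter, which asked that at least 1 of the 2 arrays read the floor value or more. NEDD9 and TAGLN did not pass, and CNN1 passed only through its control value. Among the 41, 20 were higher and 21 lower on the Kindlin-2 shRNA array, against 46.4% of all 11822 genes kept that were higher. The median difference, Kindlin-2 shRNA minus control shRNA on the log2 scale, was -0.0061, beside -0.022 for all genes kept. The sizes were also alike, with a median absolute difference of 0.19 in the members and in all genes kept and an SD across genes of 0.36 and 0.40, a spread that holds array noise as well as real differences. A difference of at least 1.5-fold was found in 4 of 41 members (9.76%), where 10.3% of all genes differed by as much. The actin oxidase MICAL2 was the single member at least 1.5-fold higher (background 5.1%), and ACTA2, FHL2 and PTK2B were the 3 at least 1.5-fold lower (background 5.23%). In these counts TPM4 stands by its brighter cluster, and its other cluster was 1.97-fold higher on the Kindlin-2 shRNA array. MICAL2 was also the only member past 2-fold (background 1.41% higher and 1.26% lower), but it fell just short of 2-fold with median centring, repeated quantile normalisation or the neighbours' median subtracted. These shares are near those of all genes, so neither the number of members that differed nor its direction set the group apart.

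**Figure D1:**
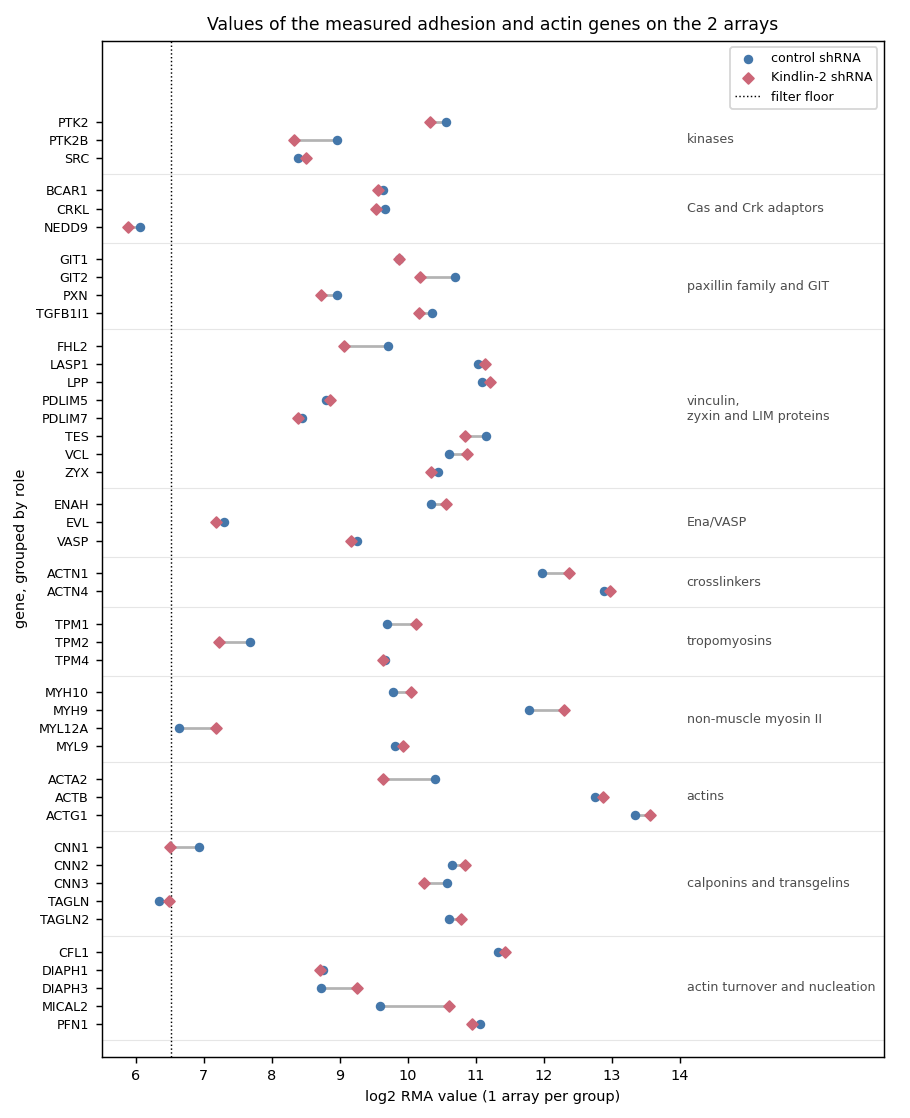
Log2 RMA value (horizontal axis) of each of the 43 measured genes on the control shRNA array (blue circles) and the Kindlin-2 shRNA array (red diamonds), grouped by role; the dotted line is the filter floor of 6.52, and there is 1 array per group, so no error bar. Most pairs lie close together, and MICAL2 has the widest gap, 9.59 in the control and 10.60 in the Kindlin-2 shRNA array.

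Among the kinases, the largest difference was in PTK2B, which encodes PYK2, the calcium-responsive relative of focal adhesion kinase. Its log2 value was 8.33 on the Kindlin-2 shRNA array and 8.96 on the control array, 1.55-fold lower. Focal adhesion kinase itself (PTK2) had values of 10.33 and 10.57, a difference of -0.24, the same direction at a smaller size. SRC, the tyrosine kinase that phosphorylates paxillin and Cas proteins together with it, had values of 8.50 and 8.39, a difference of 0.11. SRC lies on chromosome 20, where the median difference over the 352 genes kept was 0.26, and it was at -0.15 once that median was subtracted.

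The Cas and Crk adaptors differed by less than 0.2 on the log2 scale. BCAR1 (p130Cas), a scaffold that recruits Crk adaptors, had values of 9.57 and 9.64 on the Kindlin-2 shRNA and control arrays, and the adaptor CRKL had 9.53 and 9.67. NEDD9, the second Cas protein of the list, was below the floor on both arrays, at 5.89 and 6.06. All 4 measured genes of the paxillin and GIT group were below 0 as deposited, as were 6285 of all 11822 genes kept. Paxillin was above 0 after subtraction of the median of its 50 nearest genes (0.092). The ARF GTPase-activating protein GIT2, which docks on paxillin, differed most, with values of 10.18 and 10.70 (-0.51), while its relative GIT1 was at 9.87 on both arrays. Paxillin (PXN), the central LIM scaffold of adhesions, had values of 8.73 and 8.96, and its relative TGFB1I1 (Hic-5) had 10.17 and 10.36. GIT2 and PXN both lie on chromosome 12, where the median over 630 genes was -0.21. With that median subtracted GIT2 was at -0.30 and PXN at -0.022. A second, dimmer cluster of PXN had values of 6.98 and 6.97, a difference of 0.0096.

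Vinculin, zyxin and the LIM domain proteins divided evenly, 4 above and 4 below 0, with zyxin changing sides when its chromosome's median was subtracted. FHL2, a LIM-only protein that moves between adhesions and the nucleus, was the one with the largest difference, with a value of 9.06 on the Kindlin-2 shRNA array and 9.71 on the control array, 1.56-fold lower. Vinculin (VCL), which reinforces the link between talin and actin, had values of 10.87 and 10.60, a difference of 0.27 in the opposite direction. Testin (TES) had values of 10.85 and 11.15 (-0.30) and zyxin (ZYX), a sensor of tension in stress fibres, 10.34 and 10.44 (-0.10). TES and ZYX lie on chromosome 7, where the median over 551 genes was -0.22. Subtraction of that median left TES at -0.079 and turned ZYX to 0.12. The zyxin relative LPP (0.11), the actin-binding LASP1 (0.11), and the PDZ-LIM proteins PDLIM5 (0.064) and PDLIM7 (-0.057) had almost equal values on the arrays. The Ena/VASP proteins, which lengthen actin filaments and bind zyxin, lay between -0.11 and 0.22, with ENAH (Mena) the highest, at 10.56 on the Kindlin-2 shRNA and 10.34 on the control array, with EVL at -0.11 and VASP at -0.091 (0.0031 with its autosome's median subtracted).

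The non-muscle myosin II genes and alpha-actinin 1 held several of the larger positive differences. The non-muscle myosin heavy chain MYH9 had a value of 12.30 on the Kindlin-2 shRNA array and 11.79 on the control array, a difference of 0.51 or 1.42-fold. The second heavy chain, MYH10, had values of 10.04 and 9.78 (0.26). The regulatory light chain MYL12A had 7.18 and 6.64 (0.54), where the control value lay just above the floor. MYL9, another regulatory light chain, had 9.93 and 9.82 (0.11). All 4 myosin II genes of the list were thus higher on the Kindlin-2 shRNA array as deposited, beside 46.4% of all genes kept. However, MYL9 lies on chromosome 20 and was at -0.15 after subtraction of the chromosome's median. Other myosin chains did not all share the direction. The light chain MYL6 had 10.82 and 11.10 (-0.28, or -0.071 with the median of chromosome 12 subtracted). The heavy chain MYH14 had 6.69 and 6.49 (0.20), with its control value under the floor. MYL12B, a near copy of MYL12A that may share probe sequence with it, differed by 0.24, and whether the clusters separate the genes was not tested. The crosslinker alpha-actinin 1 (ACTN1), which ties stress fibres to adhesions, had values of 12.37 and 11.98 (0.39) and its relative ACTN4 12.98 and 12.88 (0.096).

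Members of a family differed in opposite directions among the actins, the tropomyosins (TPM1 against TPM2) and the calponins (CNN2 against CNN3), under all 9 alternative settings run. Other filters and the mean over clusters could not alter these differences, because each of these genes has only 1 cluster. Median centring shifts all genes alike. Of the actins, the smooth muscle isoform ACTA2 had a value of 9.64 on the Kindlin-2 shRNA array and 10.40 on the control array. It was 1.70-fold lower, the largest decrease among the members, and 315 of the 11822 genes kept had a larger one. The cytoplasmic actins did not share this direction, with ACTG1 at 13.56 and 13.34 (0.22) and ACTB at 12.88 and 12.75 (0.13). ACTB was at 0.35 when the median of chromosome 7 was subtracted. Actin genes are much alike in their coding sequence, and cross-hybridisation between them was not tested.

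Of the tropomyosins, which decide which myosins and severing proteins reach a filament, TPM1 had values of 10.12 and 9.69 (0.43) and TPM2 7.23 and 7.68 (-0.45) on the Kindlin-2 shRNA and control arrays. TPM2 lies on chromosome 9, where the median over 495 genes was -0.31, and only -0.14 was left after its subtraction. TPM4 cannot be given a direction, because its 2 transcript clusters disagree. The brighter one, used throughout, had values of 9.64 and 9.67 (-0.030), and the other had 9.88 and 8.90, which is 1.97-fold higher on the Kindlin-2 shRNA array. With the mean over clusters TPM4 was at 0.47. The second clusters of LASP1 and PXN differed from the first by less, 0.21 against 0.11 for LASP1 and 0.0096 against -0.23 for PXN.

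Of the calponins, which bind actin and restrain myosin, CNN2 had values of 10.84 and 10.65 (0.19), CNN3 10.24 and 10.58 (-0.35) and the smooth muscle isoform CNN1 6.51 and 6.93 (-0.42). CNN1 was dim, with its Kindlin-2 shRNA value under the floor. The related TAGLN2 had values of 10.79 and 10.61 (0.18). Its smooth muscle counterpart TAGLN was under the floor on both arrays, at 6.50 and 6.34. The smooth muscle genes of the list therefore did not differ alike, ACTA2 and CNN1 being lower on the Kindlin-2 shRNA array, TAGLN 0.15 higher at a level under the floor, and MYL9 0.11 higher as deposited but lower with its chromosome's median subtracted.

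MICAL2 showed the largest difference of all members. This enzyme oxidises actin and so disassembles filaments, and in the nucleus it promotes SRF-dependent transcription. Its log2 value was 10.60 on the Kindlin-2 shRNA array and 9.59 on the control array, 2.02-fold higher, and 158 of all genes kept had a larger increase. The formin DIAPH3, a nucleator of unbranched filaments, had values of 9.25 and 8.72 (0.53), whereas its relative DIAPH1 had 8.70 and 8.75. Cofilin (CFL1), which severs filaments, and profilin (PFN1), which supplies monomers, stayed close to their control values, at 11.42 against 11.33 and at 10.95 against 11.07. The members nearest to the threshold of 1.5-fold (0.58 on the log2 scale) were PTK2B (-0.63) and FHL2 (-0.64) inside it and MYL12A (0.54), DIAPH3 (0.53), GIT2 (-0.51) and MYH9 (0.51) outside it. At a lower threshold of 0.32 on the log2 scale 6 members were higher and 7 lower, or 14.6% and 17.1% of them, beside 13.3% and 15.7% of all genes kept.

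**Figure D2:**
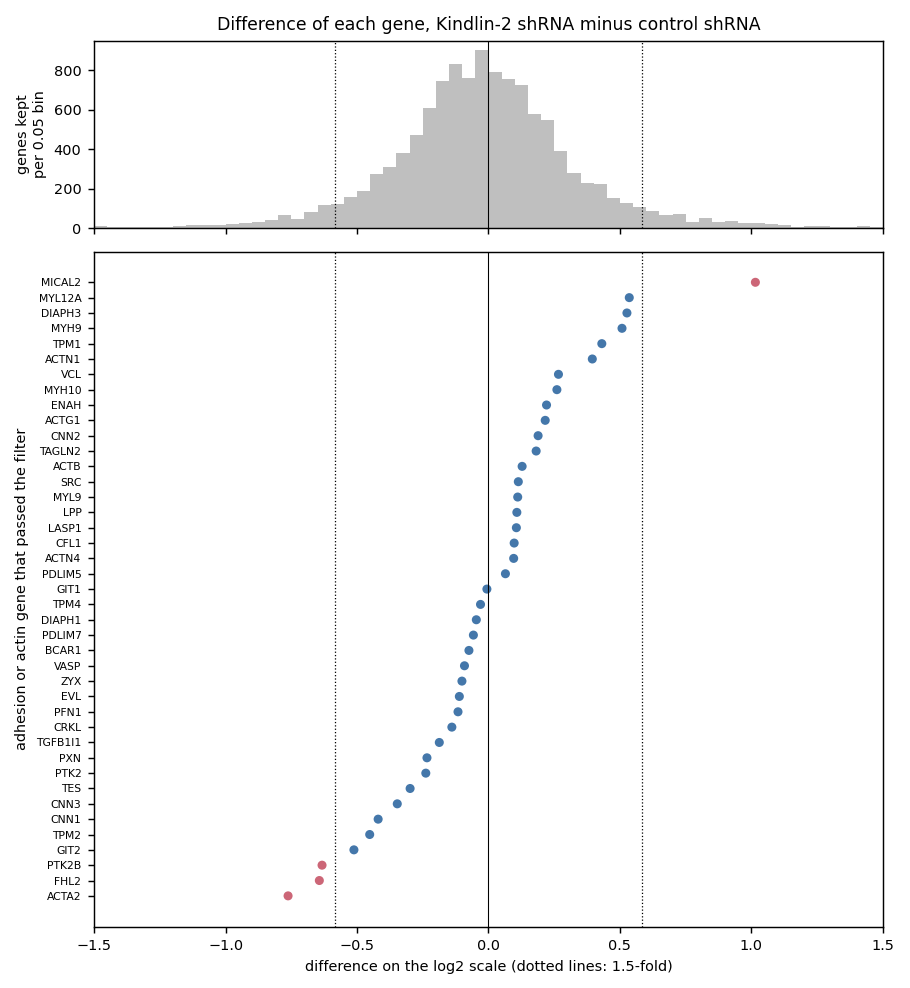
Top, number of all 11822 genes kept per bin of the log2 difference, Kindlin-2 shRNA minus control shRNA (differences beyond the axis are not drawn). Bottom, the difference of each of the 41 members that passed the filter, 1 point per gene, with the 4 past 1.5-fold (dotted lines) in red; the members spread over the same range as most genes, from -0.76 (ACTA2) to 1.02 (MICAL2).

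The promoters of the members were searched for the CArG box, the binding motif of SRF, because SRF controls many actin cytoskeleton genes. The motif has 2 C, 6 bases that are each A or T, and 2 G, reads alike in form on both strands, and was searched from 250 bases before to 50 bases after the transcription start in RefSeq promoters of GRCh38.p14. Promoters were matched by symbol for 41 of the 47 genes, and 9 of these genes (22.0%) held a CArG box in at least 1 promoter, namely ACTG1, ACTN1, CNN2, FHL2, FLNA, LPP, TES, TGFB1I1 and TPM4. Among all 27305 genes of the promoter set 1.60% held it. Counted by promoter, 11 of the members' 77 held it, beside 454 of all 35116 (1.29%). The windows shown are those of the member with the largest difference among the 8 measured carriers (FHL2, at 2 of its starts), of carriers that differed in the opposite direction (ACTN1, ACTG1 and CNN2) and of a paxillin relative (TGFB1I1). They are written 5′ to 3′ on the gene's strand with the CArG box in capitals.
FHL2, chr2:105438580-105438639, minus strand, 92 to 101 bases before the start: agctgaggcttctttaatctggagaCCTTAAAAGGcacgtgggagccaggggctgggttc
FHL2, chr2:105399076-105399135, minus strand, 50 to 59 bases before the start: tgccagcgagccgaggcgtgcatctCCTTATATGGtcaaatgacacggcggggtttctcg
ACTN1, chr14:68977703-68977762, minus strand, 162 to 171 bases before the start: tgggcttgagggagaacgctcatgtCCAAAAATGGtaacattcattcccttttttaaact
ACTG1, chr17:81512859-81512918, minus strand, 85 to 94 bases before the start: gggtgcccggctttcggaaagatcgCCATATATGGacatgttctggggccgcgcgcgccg
CNN2, chr19:1026494-1026553, plus strand, 80 to 89 bases before the start: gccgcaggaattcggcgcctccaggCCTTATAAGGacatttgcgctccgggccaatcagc
TGFB1I1, chr16:31473129-31473188, plus strand, 42 to 51 bases before the start: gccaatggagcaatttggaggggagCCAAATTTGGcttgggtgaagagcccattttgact

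The genes that carry these boxes did not move together. Of the 8 carriers measured, 4 were above and 4 below 0, with differences from -0.64 (FHL2) to 0.39 (ACTN1) and a median of 0.039. The 28 measured members with a promoter sequence and no box had a median of -0.026, and 13 of them were above 0. TPM4, 1 of the 4 carriers below 0, is the gene whose clusters disagree. SRF itself had a value of 8.72 on the Kindlin-2 shRNA array and 9.06 on the control array, a difference of -0.33. That difference was -0.29 with its autosome's median subtracted and -0.17 with its neighbours' median subtracted. The co-activator MRTFB had 8.44 and 8.52. A match to the motif describes the letters of the window and no binding was measured. Only exact matches in the searched stretch were counted. The lack of a box therefore does not show that a gene is no SRF target.

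The location of the members bears on the small differences. Of the 41 members, 8 lie on chromosomes 7, 9, 12 and 20, the 4 whose genes had a median difference more than 0.2 from 0. Subtraction of the median of each gene's own autosome turned the sign of 5 members, among them SRC, MYL9 and ZYX, and subtraction of the median of the 50 nearest measured genes also turned 5. Larger differences changed too in part. After subtraction of the neighbours' median GIT2 was at -0.30, TPM2 at -0.11 and MYL12A at 0.43, whereas MICAL2 was at 0.96, ACTA2 at -0.84, FHL2 at -0.64, PTK2B at -0.68 and MYH9 at 0.57. With the median of its autosome subtracted PTK2B was at -0.58, just short of 1.5-fold.

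**Figure D3:**
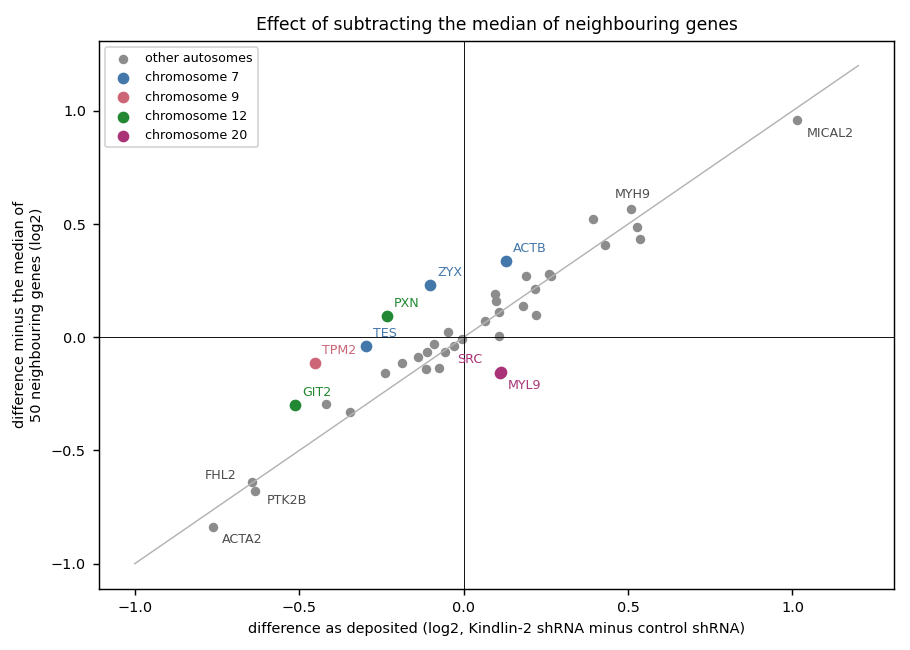
Difference of each of the 41 members as deposited (horizontal axis) and after subtraction of the median over its 50 closest measured neighbours on that autosome (vertical axis), both on the log2 scale; the grey line marks equal values. The members on chromosomes 7, 9 and 12 lie above the line and SRC and MYL9 on chromosome 20 lie below it, while MICAL2, ACTA2, FHL2 and PTK2B stay near it.

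A further 114 genes of adhesion and actin control, in 5 lists chosen with earlier results of these data known, were read in the same way. The filter was passed by 95 of them. Of these, 6 passed 1.5-fold upward and 4 downward (background 5.1% and 5.23%), and 34 were above 0 (background 46.4%) and 61 below, with a median of -0.055 beside -0.022 for all genes kept. Further adhesion adaptors, LIM proteins and Src-family kinases had a median of -0.17, with 24 of 29 below 0. With autosome medians subtracted the median was -0.095 and 20 of 29 were below 0. With neighbour medians subtracted it was -0.16 and 22 of 29 were below 0. In that list the vinculin-binding adaptor SORBS2 had values of 6.65 and 8.40, which is 3.35-fold lower, the kinase LYN was 1.62-fold lower and the stress fibre protein palladin (PALLD) 1.54-fold, while nexilin (NEXN) was 1.59-fold higher.

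Proteins that cap, turn over or bundle filaments had a median of 0.023, and 4 of the 24 that passed the filter were at least 1.5-fold higher and 1 as much lower (background 5.1% and 5.23%). With autosome medians subtracted 3 were at least 1.5-fold higher. The 4 were the filament crosslinker LIMA1 (EPLIN), with values of 9.99 and 9.08 (1.88-fold), supervillin (SVIL, 1.79-fold), anillin (ANLN, 1.60-fold), which scaffolds actomyosin at the cleavage furrow, and destrin (DSTN, 1.55-fold). The gelsolin relative scinderin (SCIN) had 8.26 and 9.79 and was 2.88-fold lower. DSTN lies on chromosome 20 and was at 0.37 with that chromosome's median subtracted, under 1.5-fold.

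None of the 26 genes of the Arp2/3 complex and other nucleation factors that passed the filter reached 1.5-fold in either direction (background 10.3%), and their median was -0.068. Of 11 other myosin chains MYO5A, a vesicle motor, was the only one past 1.5-fold, at 1.63-fold higher. Of the 7 genes listed for SRF and its co-activators, 6 had a cluster and 5 passed the filter, and none of these 5 reached 1.5-fold. The 5 were SRF, MRTFB, ELK1, ELK3 and ELK4, and MYOCD did not pass.

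**Figure D4:**
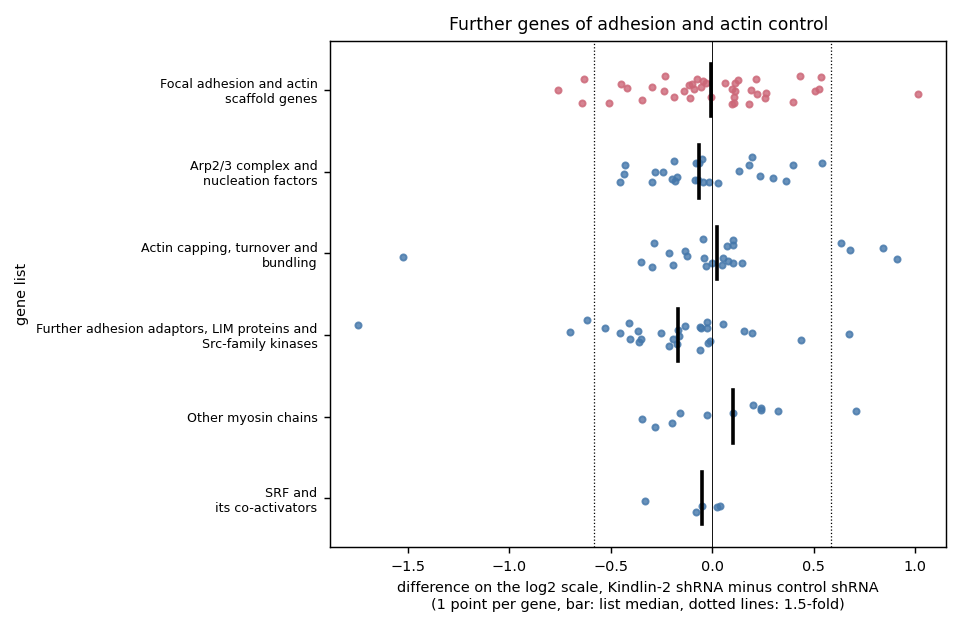
Difference on the log2 scale, Kindlin-2 shRNA minus control shRNA, of the 41 members (top row, red) and of the genes of 5 further lists that passed the filter (blue), 1 point per gene with vertical jitter; black bars are list medians and dotted lines mark 1.5-fold. The further adaptors lie mostly left of 0, with a median of -0.17 as deposited, and the members are centred near 0.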

How the data were processed

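Per the submitters' processing notes, RMA values of the 2 arrays were made in Expression Console 1.4.1. The log2 values deposited by the authors, for 33297 transcript clusters, run from 2.13 to 14.04. RMA makes the distributions of arrays alike and shrinks differences of dim genes. Scanner files and detection calls were not used here.

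Symbols came from GEO's platform annotation, updated through Entrez IDs to RefSeq (GRCh38.p14). Clusters with several symbols were left out, and a gene was represented by its brightest cluster. A gene was kept when its higher value reached 6.52, the median of the table. Differences are Kindlin-2 shRNA minus control shRNA, with no test. Named genes were the target, all members, and up to 3 genes per direction and list past 1.5-fold (DSTN, SRF, MRTFB, ELK1, ELK3, ELK4, MYL12B, MYL6, MYH14 and the marker genes were named after their values were seen). The members and lists were chosen with earlier results of these data known, and some further actin regulators are not reported here. Counting and chromosome medians were tested on simulated data. Python 3.11.15 with pandas 2.3.3 and statsmodels 0.14.6 was used.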

Additional observations from a re-analysis of the deposited data

How the results depend on the processing

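Each result was recomputed with 3 other filters on dim genes, the mean over clusters, median centring, repeated quantile normalisation, a loess correction and subtraction of autosome or neighbour medians. Under these 9 settings FERMT2 and the median of the members moved by less than 0.1 on the log2 scale, and the number of members above 0 and the counts at 1.5-fold by no more than 1.5 times, the largest move in the latter being from 3 to 2 members lower with autosome medians subtracted. The count at least 2-fold higher, MICAL2 alone, became 0 with median centring, repeated quantile normalisation, neighbour medians subtracted and at a threshold of 3-fold. At a lower threshold of 0.32 on the log2 scale, 6 members were higher and 7 lower in place of 1 and 3 at 1.5-fold. Of the 41 members 34 kept their sign in every setting run and 7 did not (DIAPH1, MYL9, PXN, SRC, TPM4, VASP and ZYX), and 3 of the 4 past 1.5-fold stayed past it, PTK2B being the exception. The 3 filters leave each gene's difference unchanged, and among the members the mean over clusters alters only LASP1, PXN and TPM4. Median centring shifts all genes alike. A sign or size kept under the filters is therefore no separate check. No setting used the second cluster of TPM4 alone. No paired analysis was possible because each group held 1 array.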
